A study of Mus musculus with 6 samples.

Results

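Immune checkpoint and NK receptor ligands are surface or secreted proteins through which a tumor cell is read by T cells, natural killer (NK) cells and phagocytes. The 9 ligand genes described here are Cd274, Pdcd1lg2, Cd276, Lgals9, Cd47, Pvr, Pvrl2 (the older symbol of Nectin2), Tnfrsf14 and Ulbp1. They were listed by name, with earlier results of these data known, and all 9 were found among the 23791 named genes of the count table. The libraries are of RM1 cells, a mouse prostate cancer line of the C57BL/6 strain. RM1536 cells recovered from the femur (called bone, 1 library) and from the lung (1 library) came from 1 mouse, 16 days after tumor cells stained with the dye PKH26 were injected into the heart. Only proliferating, PKH-negative cells were taken. RM1536 grown in culture (libraries a and b) is RM1 that carries 2 labels, luc2 (a luciferase) and eCFP (a fluorescent protein), and is a pool of clones named 5, 3 and 6. Unlabelled RM1 in culture (libraries a and b) is the parental line. All 4 groups were sorted by flow cytometry and then grown in DMEM with 5% FBS to 85% confluency, so bone and lung stand for cells regrown in a flask and not for tumor tissue. Bone and lung have no replicate, and whether libraries a and b of a line came from separate cultures is not given in the sources used here.

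A checkpoint ligand binds an inhibitory receptor on an immune cell and lowers its response, and interferon-gamma is the best known inducer of the PD-1 ligands. NK cells weigh inhibitory signals against activating ones, so the same tumor cell can carry ligands of both kinds. Blocking antibodies to several of these pairs, PD-L1 with PD-1 above all, are used or tested in cancer treatment.

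The libraries held 22763835 counts in bone, 26903505 in lung, 24291590 and 30303566 in RM1536, and 30199663 and 27562047 in RM1. Levels are given as CPM (reads of a gene per 1000000 counts) scaled by the TMM method, in the order bone, lung, RM1536 a, RM1536 b, RM1 a, RM1 b unless groups are named. At this depth 3 counts, taken as the limit that a count of 0 allows, correspond to 0.0990 to 0.132 CPM. Intervals and limits cover counting error only. Of the prostate epithelium markers, Krt8 had between 966 and 2367 CPM over the 6 libraries, while Hoxb13 and Krt5 had no read in any. The 10 leukocyte markers in the table summed to 25.6 CPM in bone, 24.1 CPM in lung, 11.9 and 4.08 CPM in RM1536, and 11.7 and 45.5 CPM in RM1. Most of that sum was Cd68, and Ptprc, which marks all leukocytes, was at or under 0.0668 CPM in every library. Lyz2, a myeloid marker, had 2.68 CPM in bone and 2.88 CPM in lung, against 0 reads in the 4 culture libraries. Laptm5, another leukocyte marker, was called lower in RM1536 than in RM1, a call lost without any 1 of the 4 culture libraries. Markers of endothelium, erythroid cells and lung epithelium each summed to at most 6.08 CPM in a library. Those of osteoblasts and osteoclasts summed to 7.60 CPM in bone, 14.5 CPM in lung, 2.94 and 1.33 CPM in RM1536, and 24.7 and 6.41 CPM in RM1. In that list, Ctsk was called higher and Dmp1 lower in RM1536 than in RM1, and likewise in recovered cells than in RM1. In RM1536 against RM1 the Ctsk call was lost in 7 of 12 alternative settings, among them without RM1 a, RM1 b or RM1536 a, and the Dmp1 call without RM1536 a or RM1536 b. In recovered cells the Dmp1 call was lost without bone or lung. The part of other cell types in the ligand values was not tested.

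Among the ligand genes, Lgals9, Cd274, Cd276 and Pvrl2 were lower in RM1536 than in RM1 and passed the test, by log2 fold changes between -3.29 and -1.58. Lgals9 and Cd276 were also lower in the recovered cells (mean of bone and lung) than in RM1. Ulbp1 had less than 1 CPM in bone, against 13.6 CPM in lung and 4.21 to 9.58 CPM in culture. Pdcd1lg2 had 15 reads in bone and 2 in the other 5 libraries together. In bulk RNA, fewer cells making a transcript and less transcript per cell cannot be told apart.

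Cd274 codes for PD-L1, a ligand of the inhibitory receptor PD-1 of T cells. It lies on chromosome 19 at 29367455 to 29388095 (plus strand, GRCm38, GENCODE M21 annotation). Its level was 5.36 CPM in bone, 5.33 CPM in lung, 4.67 and 1.94 CPM in RM1536, and 15.9 and 23.9 CPM in RM1. Both RM1 libraries stood above the other 4, and bone and lung lay close to RM1536 a. Cd274 fell by 2.60 ± 0.49 on the log2 scale in RM1536 relative to RM1 (SE, n = 2 and 2; edgeR adjusted p = 0.0410). RM1536 a held 2.40 times the level of RM1536 b, and the call was lost without RM1536 b (adjusted p = 0.0988) and without RM1 b (0.0695). Recovered cells against RM1 gave -1.90 ± 0.47 (adjusted p = 0.0653), which did not pass; it did without RM1536 a (0.0353) or RM1536 b (0.0326).

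Pdcd1lg2 codes for PD-L2, the second ligand of PD-1, and starts 22.8 kb beyond the end of Cd274 on the same strand (29410919 to 29471161). It had 15 reads in bone (0.659 CPM, exact 95% interval 0.369 to 1.09), 0 in lung, 0 and 1 in RM1536, and 0 and 1 in RM1. Bone was the 1 library with more than 1 read, and Pdcd1lg2 entered the test through that library alone. Bone against the other 5 libraries together was a ratio of 45.9 (95% counting interval 10.7 to 413), chosen after the values were seen, and bone was at least 5.56-fold higher than lung, where a floor of 3 counts was used for 1 library. With bone at 1 library there is no replicate for this difference, and its adjusted p against RM1536 was 0.295. Of the leukocyte markers, Laptm5 had 55 reads in bone and 7 in lung, Tyrobp 4 and 0, Lyz2 61 and 73, and Fcer1g 2 and 11, and Cd68 made up most of the sum in both (19.7 CPM in bone and 20.2 CPM in lung). Their part in the Pdcd1lg2 value was not tested.

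**Figure D1:**
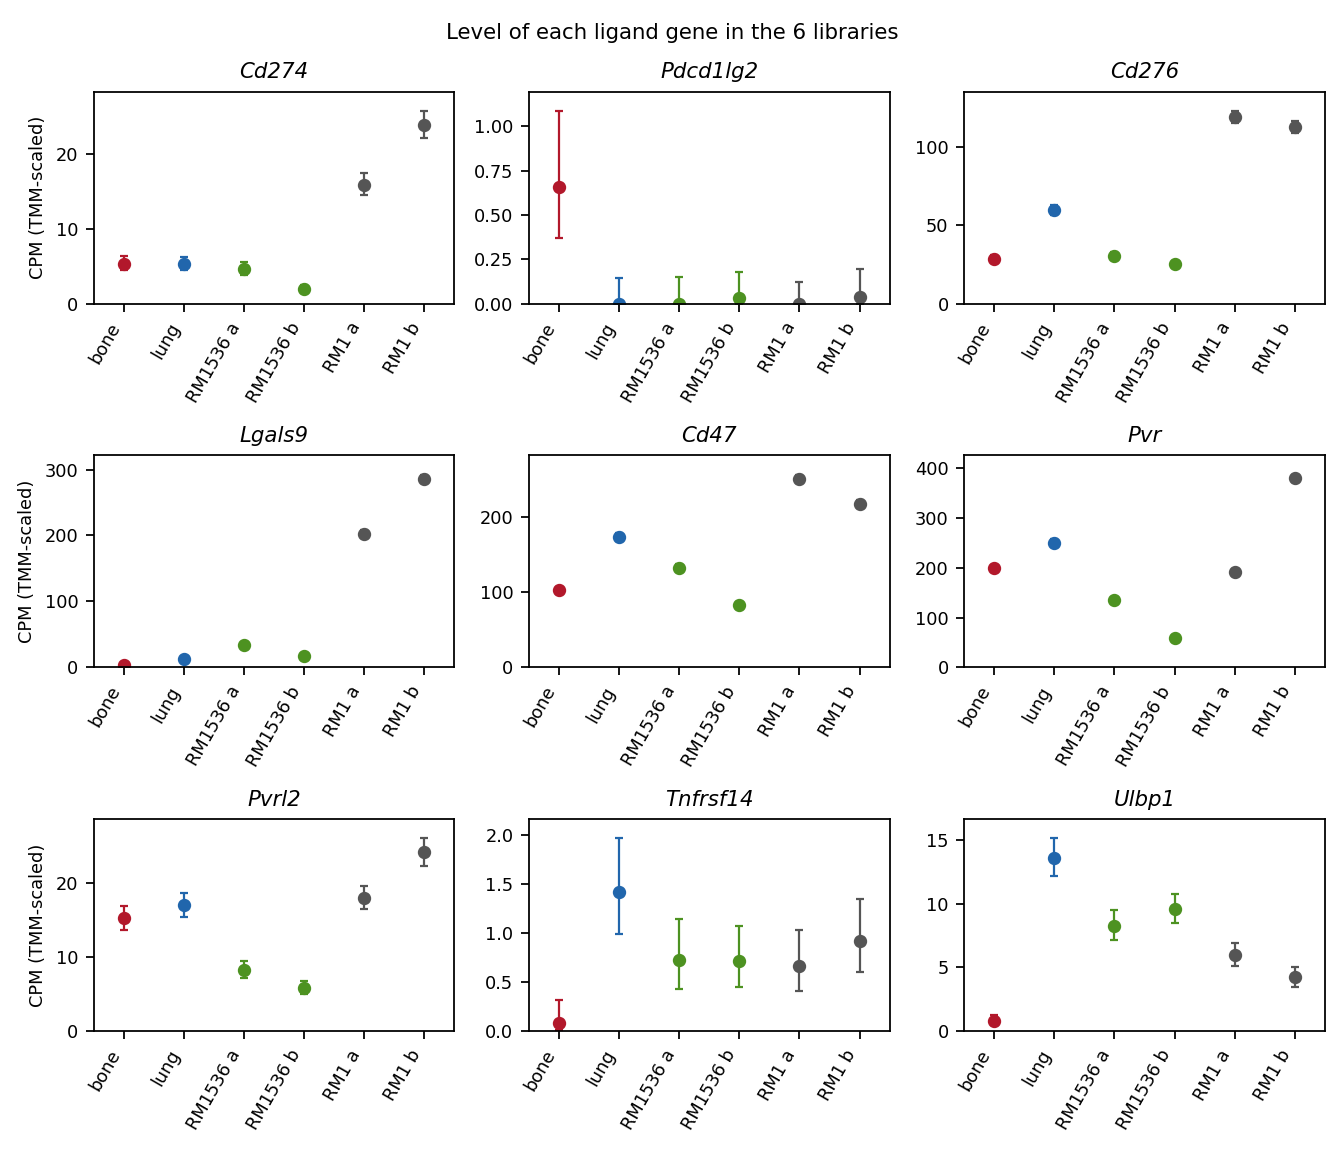
Level of each ligand gene in TMM-scaled CPM (linear y axis, own scale per panel) in bone, lung, RM1536 a and b, and RM1 a and b; points are single libraries and bars are exact 95% counting intervals. Lgals9, Cd276, Cd274, Pvrl2, Cd47 and Pvr are higher in both RM1 libraries than in both RM1536 libraries, and Ulbp1, Tnfrsf14 and Lgals9 are lowest in bone.

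Cd276 codes for B7-H3, a B7 family protein with mainly inhibitory effects on T cells (chromosome 9, 58524298 to 58555437, minus strand). Bone had 28.5 CPM, lung 59.8 CPM, RM1536 30.6 and 25.4 CPM, and RM1 119 and 113 CPM. The duplicates lay close together, bone was between the RM1536 libraries, and lung was above both RM1536 libraries and below both RM1 libraries. Cd276 fell in RM1536 relative to RM1 (log2 fold change -2.05 ± 0.21, adjusted p = 0.0110) and in recovered cells relative to RM1 (-1.49 ± 0.21, adjusted p = 0.0153). Without bone the second call was lost (adjusted p = 0.109). Lung against RM1536 gave 1.09 ± 0.24 (adjusted p = 0.295), and bone against RM1536 gave 0.03 ± 0.25 (adjusted p = 0.991).

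Lgals9 codes for galectin-9, a secreted lectin best known as a ligand of TIM-3 on T and NK cells (chromosome 11, 78962974 to 78984946, minus strand). Its level was 3.03 CPM in bone, 13.0 CPM in lung, 33.4 and 16.6 CPM in RM1536, and 202 and 286 CPM in RM1. Bone was lowest and lung next, at 1 library each, then came both RM1536 libraries and both RM1 libraries. Mean levels were 24.96 ± 11.9 CPM in RM1536 and 244 ± 59.0 CPM in RM1 (SD, n = 2 each). Lgals9 fell in RM1536 relative to RM1 (-3.29 ± 0.40, adjusted p = 0.0148) and in recovered cells relative to RM1 (-5.28 ± 0.45, adjusted p = 0.00479). Against RM1536, bone gave -3.04 ± 0.55 (adjusted p = 0.143) and lung gave -0.94 ± 0.48 (adjusted p = 0.428). Cd276 and Lgals9 kept the RM1536 against RM1 call in 12 of 12 alternative settings.

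Promoters were read because Lgals9, Cd274 and other ligands are known interferon-responsive genes. They are shown for Lgals9 and Cd274, which are among the 4 genes called in RM1536 against RM1, and for Tnfrsf14, the other gene with a motif match. A RefSeq promoter (GRCm38.p6) was found for 8 of the 9 genes, and the 250 bases before the start were searched on both strands. The core of the interferon-stimulated response element, written GAAANNGAAA, was found in Lgals9 (bases -55 to -46) and Tnfrsf14 (bases -64 to -55). Of 32851 mouse promoters of the same length, 2.98% held it. The gamma-activated site TTCNNNGAA was found in 0 of the 8 (7.02% of all promoters), and the E-box CACGTG in 0 of the 8 (6.02%). Windows are given 5′ to 3′ on the strand of the gene, with a match in capitals (the reverse complement of the motif as written).
Lgals9 (chr11:78984925-78985174, minus strand): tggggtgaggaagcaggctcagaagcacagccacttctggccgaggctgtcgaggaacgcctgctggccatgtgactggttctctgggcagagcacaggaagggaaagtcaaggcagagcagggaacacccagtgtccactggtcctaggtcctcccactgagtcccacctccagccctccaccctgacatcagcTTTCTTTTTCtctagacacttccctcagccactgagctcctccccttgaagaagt
Tnfrsf14 (chr4:154928078-154928327, minus strand): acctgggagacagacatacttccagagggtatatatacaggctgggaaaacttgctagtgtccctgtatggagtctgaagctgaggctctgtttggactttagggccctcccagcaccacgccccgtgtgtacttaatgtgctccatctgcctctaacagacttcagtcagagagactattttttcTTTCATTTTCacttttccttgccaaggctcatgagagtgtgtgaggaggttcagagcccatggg
Cd274 (chr19:29367188-29367437, plus strand): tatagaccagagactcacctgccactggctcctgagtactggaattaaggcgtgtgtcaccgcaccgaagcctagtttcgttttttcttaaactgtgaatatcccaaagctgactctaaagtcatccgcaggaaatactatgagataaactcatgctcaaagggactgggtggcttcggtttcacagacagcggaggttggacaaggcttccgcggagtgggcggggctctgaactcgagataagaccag
The Cd274 window has no match, and neither do those of Cd276 and Pvrl2, the other called genes, which are not shown. The Tnfrsf14 window, placed by the RefSeq start, lies inside the span of the gene in the GENCODE annotation. A link between matches and expression calls was not tested. A match describes the letters and does not show a bound site.

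Cd47 codes for the "do not eat me" protein that binds SIRP-alpha on phagocytes (chromosome 16, 49800533 to 49915010, plus strand). Bone had 103 CPM, lung 173 CPM, RM1536 132 and 82.9 CPM, and RM1 249.9 and 217 CPM. Both RM1 libraries were the highest, and bone lay between the RM1536 libraries. RM1536 against RM1 gave -1.12 ± 0.28 (adjusted p = 0.0791) and recovered cells against RM1 gave -0.81 ± 0.28 (adjusted p = 0.138), so neither passed. DESeq2 called the first (adjusted p = 0.00463).

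Pvr (CD155) and Pvrl2 (Nectin2, CD112) code for nectin family proteins. Both are known to bind the activating receptor DNAM-1 and inhibitory receptors such as TIGIT, Pvr the more strongly of the pair for TIGIT. They lie 153 kb apart on the minus strand of chromosome 7, Pvr at 19903578 to 19921160 and Pvrl2 at 19716644 to 19750483. Pvr had 199.96 CPM in bone, 250.5 CPM in lung, 135 and 58.3 CPM in RM1536, and 192 and 379 CPM in RM1. Pvrl2 had 15.2 CPM in bone, 17.0 CPM in lung, 8.25 and 5.83 CPM in RM1536, and 18.0 and 24.1 CPM in RM1. In both genes the 2 RM1536 libraries were the lowest of the 6 and RM1 b the highest, and bone and lung were above both RM1536 libraries.

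Pvrl2 fell by 1.58 ± 0.30 in RM1536 relative to RM1 (adjusted p = 0.0413), while Pvr gave -1.57 ± 0.49 and did not pass (adjusted p = 0.132). The Pvr duplicates differed by 2.31-fold in RM1536 and by 1.97-fold in RM1, against 1.42-fold and 1.34-fold for Pvrl2. The Pvrl2 call was lost without any 1 of the 4 culture libraries (adjusted p 0.0566 to 0.149). Recovered cells against RM1536 gave 1.21 ± 0.49 for Pvr (adjusted p = 0.370) and 1.19 ± 0.30 for Pvrl2 (adjusted p = 0.227). Recovered cells against RM1 gave -0.35 ± 0.48 for Pvr (adjusted p = 0.703) and -0.39 ± 0.29 for Pvrl2 (adjusted p = 0.464). The comparisons with RM1536 and with RM1 share the bone and lung libraries, and the comparisons with RM1536 share its duplicates with the first. Bcl3, which codes for a nuclear regulator of NF-kappaB, lies between both genes and stood at 1.58 CPM in bone, 1.89 CPM in lung, 2.53 and 3.27 CPM in RM1536, and 12.0 and 11.3 CPM in RM1. Bcl3 fell by 2.00 in RM1536 relative to RM1 (adjusted p = 0.0283), and Tomm40, on the other side of Pvrl2, gave -0.16 (adjusted p = 0.757).

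**Figure D2:**
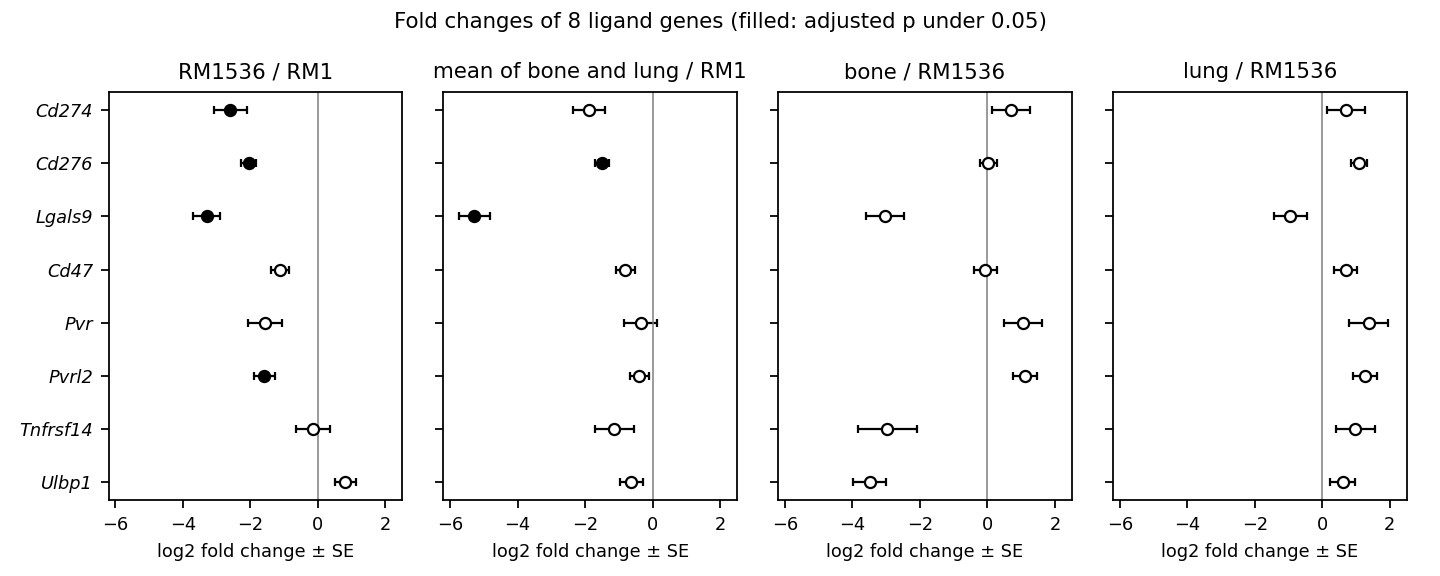
Log2 fold change ± SE of 8 ligand genes in 4 comparisons, with the first named group over the second; filled points have an edgeR adjusted p under 0.05. Called points stand in the RM1536 against RM1 panel (4) and the recovered against RM1 panel (2), all below 0, and the bone and lung panels have none; Pdcd1lg2 is left out because its fitted fold rests on 2 culture reads.

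Tnfrsf14 codes for HVEM, a receptor of the TNF family that serves as a ligand of the inhibitory receptors BTLA and CD160 (chromosome 4, 154921933 to 154928563, minus strand). It had 2 reads in bone (0.0878 CPM), 36 in lung (1.42 CPM), 18 and 22 in RM1536 (0.724 and 0.712 CPM), and 20 and 26 in RM1 (0.668 and 0.921 CPM). The cultures lay close together, with lung above them and bone below. Bone against lung was a ratio of 0.0618 (95% counting interval 0.00721 to 0.240), and bone against RM1536 a ratio of 0.122 (0.0143 to 0.472). RM1536 against RM1 gave -0.14 ± 0.50 (adjusted p = 0.900). At these counts smaller differences were not detectable.

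Ulbp1 codes for MULT1, which in the mouse is a ligand of NKG2D, an activating receptor of NK cells and some T cells (chromosome 10, 7440362 to 7473638, minus strand). Its level was 0.791 CPM in bone (18 reads), 13.6 CPM in lung (345 reads), 8.29 and 9.58 CPM in RM1536, and 5.95 and 4.21 CPM in RM1. Bone was far below the other 5 libraries and lung above them all. Bone against lung gave -4.10 ± 0.52 (adjusted p = 0.15) and bone against RM1536 gave -3.49 ± 0.49 (adjusted p = 0.0843), so neither passed edgeR. DESeq2 called both (adjusted p = 6.77e-07 and 1.94e-06), and without RM1 b edgeR called both (0.0487 and 0.0352). RM1536 against RM1 gave 0.81 ± 0.32 (adjusted p = 0.199), with both RM1536 libraries above both RM1 libraries, the 1 ligand gene with that order.

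Read together, 4 of the 9 ligand genes were called lower in RM1536 against RM1 and 0 higher, where 5.64% of all 13832 genes tested were called (3.54% lower and 2.1% higher). At an unadjusted p under 0.05 there were 7 of 9, against 23% of all genes. In 6 of 9 both RM1536 libraries stood below both RM1 libraries, as in 26.9% of all genes, and in 1 of 9 both stood above, as in 27.2%. The median log2 fold change of the 8 genes with a fitted fold was -1.57, against 0.02 over all genes. All 9 passed the low-count filter, Pdcd1lg2 through bone only. In recovered cells against RM1, 2 of 9 were called lower and 0 higher (8.77% of all genes were called, 5.39% lower and 3.38% higher). At an unadjusted p under 0.05 there were 4 of 9, against 25.2% of all genes. In 5 of 9 both recovered libraries stood below both RM1 libraries (27.5% of all genes). As the 9 genes were listed with earlier results of these data known, these shares describe the genes and do not test the set.

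No ligand gene was called by edgeR in the other 4 comparisons, in which few genes were called at all: 0.0145% for bone against RM1536, 0% for lung against RM1536, 0.0289% for recovered cells against RM1536 and 0.00723% for bone against lung. At an unadjusted p under 0.05 the 8 ligand genes other than Pdcd1lg2 gave 4 for bone against RM1536 (9.92% of all genes), 2 for lung against RM1536 (13.8%, or 1902 genes), 5 for recovered cells against RM1536 (13.3%) and 4 for bone against lung (8.47%). Pdcd1lg2 is left out of these counts because it was tested only through bone, the library in which it is high. DESeq2 called Lgals9 and Ulbp1 for bone against RM1536 (2.97% of the genes to which it gave an adjusted p) and for bone against lung (1.71%), Cd276 for lung against RM1536 (2.81%), and Lgals9, Pvrl2 and Ulbp1 for recovered cells against RM1536 (3.63%). Both recovered libraries stood above both RM1536 libraries in Cd274, Pvr and Pvrl2 (3 of 9; 19.7% of all genes) and below both in Lgals9 (1 of 9; 21.5%). In lung, 7 of the 8 genes with a fitted fold were above RM1536, with a median of 0.84 against -0.03 over all genes, and Lgals9 was below it. In bone, 4 of the 8 were above RM1536 (median -0.02 against -0.03).

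Bone was at least 2-fold lower than lung in 4 of the 9 genes (Cd276, Lgals9, Tnfrsf14 and Ulbp1), as in 9.72% of all genes. Bone was at least 2-fold higher in Pdcd1lg2 (1 of 9; 9.46% of all genes). Pdcd1lg2 was tested only through bone, the library in which it is high, so it cannot be weighed against that percentage. Bone was also at least 2-fold below both RM1536 libraries in Lgals9, Tnfrsf14 and Ulbp1 (6.17% of all genes). In Tnfrsf14 and Ulbp1, bone lay below and lung above both RM1536 libraries (2 of 9; 7.81% of all genes). The culture duplicates limit how far these sizes can be read: RM1536 a and b differed by 2-fold or more in Cd274, Lgals9, Pvr and Pdcd1lg2 (4 of 9; 13.8% of all genes), with RM1536 a higher in the first 3. RM1 a and b differed by that much in Pdcd1lg2 (1 of 9, against 12.9% of all genes). Pdcd1lg2 has 0 and 1 read in each line, so it meets this rule through 1 read and says nothing about the duplicates.

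Levels of different genes were compared per kilobase of exon. In RM1, Lgals9 was the highest of the 9 at 94.7 and 134 CPM per kb, ahead of Pvr (31.4 and 62.0), Cd47 (39.8 and 34.5) and Cd276 (32.6 and 30.9). In bone, Pvr led at 32.7 CPM per kb, with Cd47 at 16.3, Cd276 at 7.80, Pvrl2 at 4.35, Cd274 at 1.48 and Lgals9 at 1.42. Lgals9 thus ranked 6 in bone (5 when scaled by the longest transcript), 4 in lung, 3 in both RM1536 libraries and 1 in both RM1 libraries. Pvr and Cd47 held the top places in bone, lung and both RM1536 libraries. Ulbp1 and Tnfrsf14 stood at 0.118 and 0.0611 CPM per kb in bone, 2.02 and 0.988 in lung, and between 0.465 and 1.42 in culture.

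**Figure D3:**
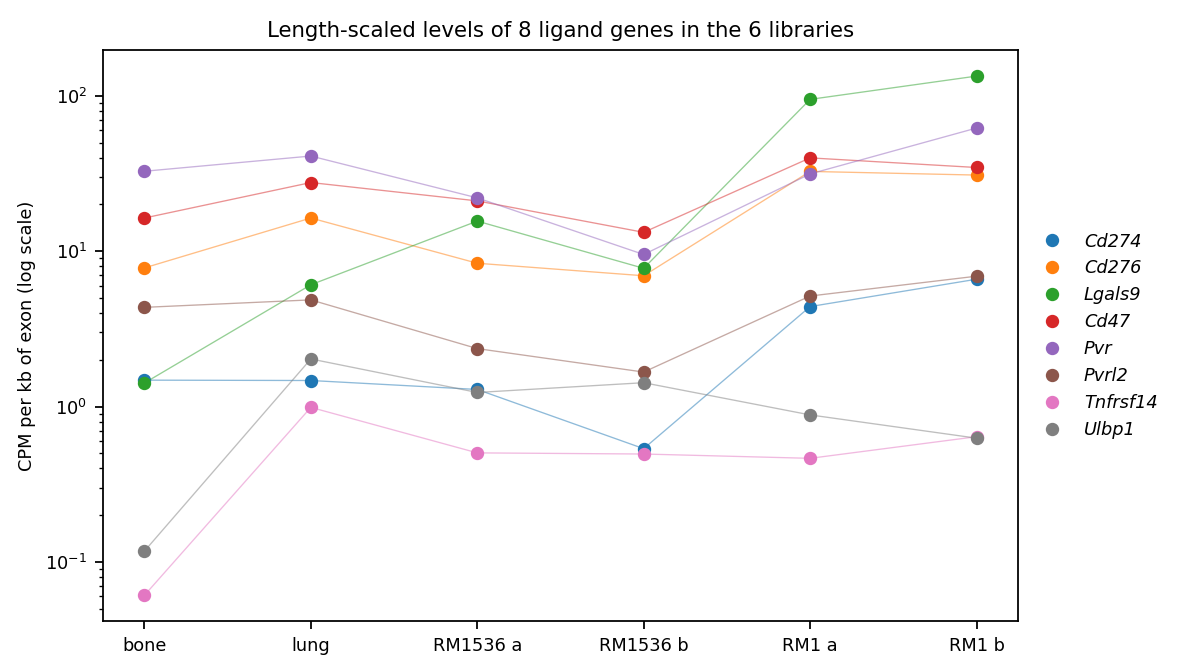
Level of 8 ligand genes in TMM-scaled CPM per kb of exon (log y axis) in the 6 single libraries, joined by lines to follow a gene; Pdcd1lg2 is left out because it has 0 reads in 3 libraries. Lgals9 goes with the lower genes in bone (1.42) and is the highest in both RM1 libraries (94.7 and 134), while Pvr, Cd47 and Cd276 keep to the upper part in each library.

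Other ligand families were read for the same comparisons. Of 9 tested ligands of other NK, T cell and phagocyte receptors, 1 was called lower in RM1536 against RM1: Cd24a, a "do not eat me" gene, had 1 read in RM1536 and 603 in RM1 (adjusted p = 0.00966). That is a ratio of 0.00173, with a 95% counting interval from 4.37e-05 to 0.00968. Cd24a had 6.98 CPM in bone and 0.0395 CPM in lung, against 13.9 and 6.59 CPM in RM1. Ceacam1, whose protein binds itself and TIM-3, had 12.6 CPM in bone and 5.68 CPM in lung, against 1.05 and 0.0647 CPM in RM1536 and 0.167 and 0.177 CPM in RM1. Ceacam1 was higher in recovered cells than in RM1 (5.59 ± 1.09, adjusted p = 0.0346), and the call was lost without RM1 a, RM1 b or bone (adjusted p 0.0525 to 0.0852). H2-T23, which codes for the Qa-1 ligand of NKG2A and was picked after its values were seen, had 22.3 CPM in bone, 43.5 CPM in lung, 48.4 and 16.6 CPM in RM1536, and 112 and 232 CPM in RM1 (RM1536 against RM1 -2.41 ± 0.59, adjusted p = 0.0760).

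In the same families as the 9 genes, 0 of 3 tested B7 and butyrophilin relatives, 0 of 4 nectin relatives and 0 of 2 NKG2D ligands passed in RM1536 against RM1 or in recovered cells against RM1. Over all genes 5.64% and 8.77% passed, so lists this small can give 0 without differing from all genes. Vsir, which codes for VISTA, had 40.1 CPM in bone, 24.3 CPM in lung, 14.4 and 8.38 CPM in RM1536, and 24.6 and 26.1 CPM in RM1. Cd80, a co-stimulatory B7 gene, had 8.04 CPM in bone, 0.947 CPM in lung, 3.50 and 4.01 CPM in RM1536, and 0.902 and 2.62 CPM in RM1. Raet1e, another NKG2D ligand, had 20.9 CPM in bone, 31.5 CPM in lung, 20.2 and 12.0 CPM in RM1536, and 11.9 and 22.4 CPM in RM1. Its bone value was not below RM1536, unlike that of Ulbp1. Raet1d, the other tested NKG2D ligand, had 1.98 CPM in bone, 5.29 CPM in lung, 2.78 and 2.20 CPM in RM1536, and 0.701 and 1.45 CPM in RM1. In Raet1d, bone lay below and lung above both RM1536 libraries, as in Ulbp1, but bone was above both RM1 libraries. The exons of Raet1e overlap those of Raet1d and H60b, which leaves the counts of these genes uncertain. Of 3 tested TNF family co-stimulators 0 passed. Of 3 tested genes of death receptors and their ligands, Tnfsf10 (TRAIL, a ligand) was called lower in RM1536 than in RM1 (edgeR adjusted p = 0.0246). It had 3 reads in RM1536 against 117 in RM1 (ratio 0.0268, 95% counting interval 0.00544 to 0.0802). In recovered cells against RM1, Tnfsf10 (adjusted p = 0.0180) and its receptor gene Tnfrsf10b (-1.08 ± 0.24, adjusted p = 0.0489) were lower. The Tnfsf10 call was lost without RM1 a, RM1536 a or RM1536 b in RM1536 against RM1 and without lung in recovered cells, and the Tnfrsf10b call was lost without RM1 a, RM1 b, bone or lung. Partners that stabilize or mature PD-L1 and CD47 proteins (Cmtm6, Cmtm4 and Qpctl) gave 0 of 3 in both comparisons.

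Genes upstream of and beside PD-L1 in the interferon response were read as the last group. Among genes on the route from interferon-gamma to PD-L1, Irf2, which codes for a transcription factor of the interferon response, and Socs1, which codes for an inhibitor of cytokine signalling, fell in recovered cells relative to RM1. Irf2 gave -0.90 ± 0.20 (adjusted p = 0.0478) and Socs1 gave -1.18 ± 0.26 (adjusted p = 0.0479), and leaving out any 1 library ended both calls. Irf1, picked after its values were seen as a factor known to act directly on the Cd274 promoter, stood at 24.1 CPM in bone, 22.5 CPM in lung, 50.4 and 36.3 CPM in RM1536, and 46.3 and 44.6 CPM in RM1. Irf1 did not pass in RM1536 against RM1 (-0.07 ± 0.24, adjusted p = 0.897) or in recovered cells against RM1 (-0.97 ± 0.24, 0.0644).

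Of 12 interferon-stimulated genes, 3 fell in RM1536 relative to RM1 (Rsad2, Oas1a and Ddx58) and 10 in recovered cells relative to RM1. Of the 10, only Ddx58 was still called without the bone library, and 5 (Rsad2, Oas1a, Irf9, Bst2 and Ddx58) without the lung library. Their median level was 5.86 CPM in bone, 13.4 CPM in lung, 43.4 and 4.53 CPM in RM1536, and 177 and 307 CPM in RM1. Ddx58, which codes for the RNA sensor RIG-I, gave -2.99 ± 0.50 (adjusted p = 0.0299) in RM1536 against RM1 and -4.23 ± 0.53 (0.0115) in recovered cells against RM1. The others called in the recovered cells were Ifit3, Oasl2, Irf7, Irf9, Usp18, Bst2 and Ifih1, with log2 fold changes between -6.65 and -3.07. RM1 libraries were the highest of the 6 in this median, as in Lgals9, Cd274, Cd276, Cd47 and Pvrl2. RM1536 a was above RM1536 b in this median and in each of these ligand genes. The part of interferon signalling in the ligand values was not tested.

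**Figure D4:**
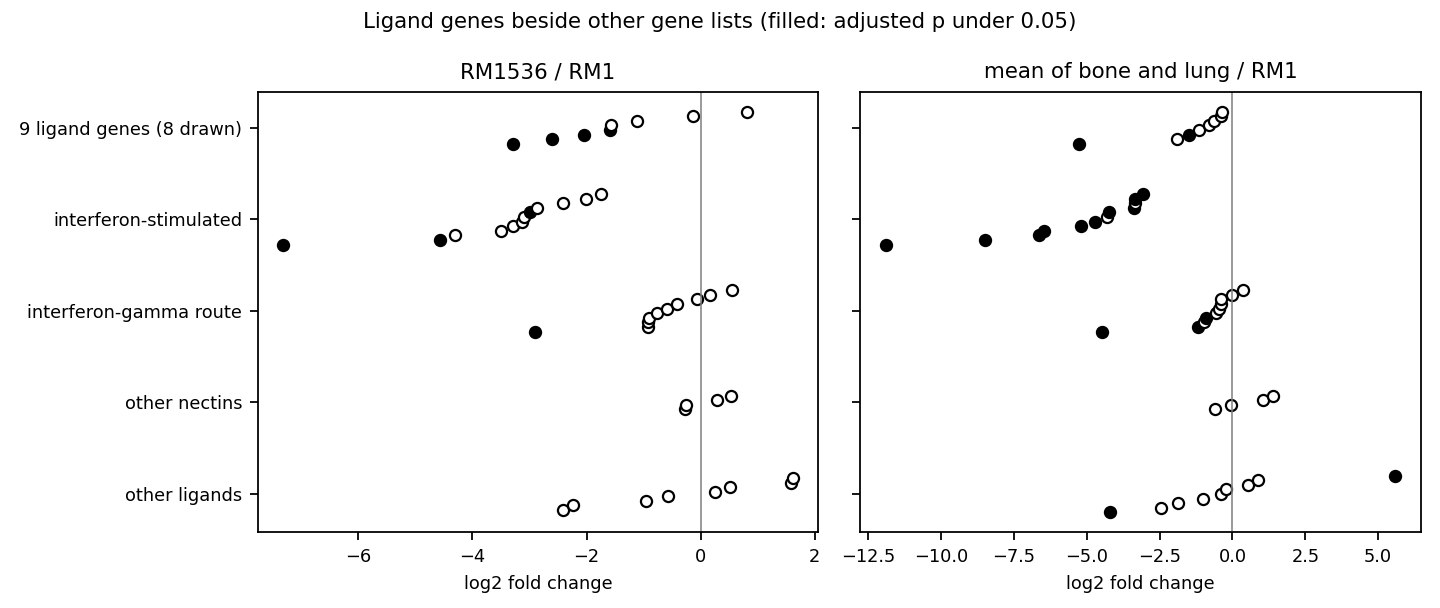
Log2 fold changes of the ligand genes and of 4 other gene lists in RM1536 against RM1 (left) and in the mean of bone and lung against RM1 (right), 1 point per gene; filled points have an edgeR adjusted p under 0.05, and points are spread vertically for sight only. Genes at or near 0 reads in a group (Pdcd1lg2 in both panels, Cd24a on the left) are not drawn, and interferon-stimulated genes extend further below 0 than the ligand genes in both panels.

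For each ligand gene with a mean of at least 5 CPM, the 3 genes nearest in pattern over the 6 libraries were found by Pearson r of log2(CPM + 1) among 9878 genes. The r values ran from 0.985 to 0.998 and describe libraries of which pairs share a line and bone and lung a mouse. Cd274 was nearest to Zfp358, Oasl1 and Zfp27, and Lgals9 to Tnfrsf1a, Mnda and Nqo2. Nearest to Cd276 were Tmem159, Fbxo6 and Fkbp15, and to Cd47 Clic4, Cstf2t and Cystm1. The nearest genes to Pvr were Spty2d1, Plekhn1 and Tsg101, and to Pvrl2 Agpat4, Stx4a and Dusp5. Ulbp1 was nearest to Msn, Msantd2 and Epb41l3. Oasl1 had 8.43 CPM in bone, 16.2 CPM in lung, 8.65 and 1.29 CPM in RM1536, and 97.9 and 196 CPM in RM1.

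Cd274, Cd276 and Pvrl2 each overlap a gene of the opposite strand in their exons in the GENCODE M21 annotation (AC119228.1, Gm10657 and Gm20512). AC119228.1 and Gm20512 are typed as antisense genes and have no counts of their own here. Gm10657 is not typed as antisense and is counted separately. The strand setting of the counting is not given in the sources used here. Reads of Cd274 and Pvrl2 and of their antisense partners therefore cannot be told apart. For Cd276, how reads in the overlap with Gm10657 were assigned is not known.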

How the data were processed

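Messenger RNA was measured in 6 libraries (2 of RM1, 2 of RM1536, 1 of bone and 1 of lung). Values in the deposited table are whole-number read counts for each gene, not normalized; the submitters' processing notes name GRCm38, TopHat2 2.1.10, HTSeq and edgeR, with no role given. Nothing more on counting was given in the sources used here. A nameless entry, holding 0.00626% to 0.00830% of a library, was left out.

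Counts were fitted with edgeR 4.0.16 (R 4.3.3), after filterByExpr by group and TMM scaling, in a quasi-likelihood model of 4 groups over all 6 libraries, and Benjamini-Hochberg adjustment over 13832 genes, with a call at 0.05. The spread came from the culture duplicates (2 residual degrees of freedom), and bone and lung were assumed to vary like them, so p-values measure no more than the duplicates' spread, part of which may be technical. RM1 a and b, like RM1536 a and b, differed beyond counting error (chi-square per degree of freedom 93.0 and 93.8). The SE is the log2 fold change over the square root of F. The script was tested on simulated data. DESeq2 1.42.0, limma-voom (limma 3.58.1), RLE scaling, other low-count filters, a replicate block and leaving out each library were alternatives; settings without bone or lung and a crossed block were added after seeing the data. Positions are from GENCODE M21.

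The ligand genes and the 16 other gene lists were chosen with earlier results of these data known. Of 124 list entries, 20 had no entry used and are not analysed here. Named are all 9 ligand genes, every called gene of a list and otherwise up to 3 per list by mean CPM; exceptions are stated, and the results of a few list genes are not reported here.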

Additional observations from a re-analysis of the deposited data

Results flagged for a closer look

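Tnfrsf14 and Ulbp1 stood out because bone lay below both RM1536 libraries and lung above both, as in 7.81% of all genes tested. The order was not particular to them: among related ligand genes, Raet1d had it and Raet1e did not. Clec2d, an NK receptor ligand picked after its values were seen, also had it (1.54 CPM in bone, 15.4 CPM in lung, 7.69 and 2.36 CPM in RM1536). For Tnfrsf14 (0.0878 CPM in bone, 1.42 CPM in lung, 0.724 and 0.712 CPM in RM1536), bone against lung had a fitted log2 fold change of -3.95 (edgeR adjusted p = 0.376), which rests on 2 reads in bone and depends on the prior count. For Ulbp1 (0.791 CPM in bone, 13.6 CPM in lung, 8.29 and 9.58 CPM in RM1536), bone against lung had a log2 fold change of -4.10 (edgeR adjusted p = 0.15; range over alternatives 1.05e-08 to 0.276). Each site is 1 library of the same mouse, so neither difference has a replicate.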

How the results depend on the processing

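Over the alternatives run, Cd276 and Lgals9 were called lower in RM1536 against RM1 in 12 of 12, Cd274 in 8, Pvrl2 in 6, and Cd47 and Pvr in 3. That comparison had 4 ligand genes called, 6 with DESeq2 or no filter, 2 with a stricter filter (1 CPM in 3 libraries), 2 with the replicate block and between 2 and 3 when a culture library was left out. With DESeq2, 2 ligand genes were called for bone against RM1536, 1 for lung against RM1536, 3 for recovered cells against RM1536 and 2 for bone against lung. Without a filter these counts were 3, 3, 4 and 3, and 4 for recovered cells against RM1. Leaving out 1 library gave 0 to 2 for bone against RM1536 (2 without RM1 b), 0 to 1 for bone against lung (1 without RM1 b) and 1 to 3 for recovered cells against RM1 (1 without bone, 3 without lung, RM1536 a or RM1536 b). The cause of these shifts was not tested, beyond the fewer libraries of the last set.

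Over all genes, 780 were called in RM1536 against RM1, 1471 with DESeq2, 2394 with no filter, 427 with the stricter filter and 196 to 513 without 1 culture library. In recovered cells against RM1, 1213 genes were called, 1837 with DESeq2, 2676 with no filter, 760 with the stricter filter, 652 without lung and 479 without bone. Counts of 0 to 4 in the other comparisons became 218 to 463 with DESeq2 and 754 to 1299 with no filter. Without RM1 b they became 128 for bone against RM1536, 7 for lung against RM1536, 75 for recovered cells against RM1536 and 32 for bone against lung. Without RM1 a they became 32, 0, 18 and 1, and without RM1536 a or RM1536 b 0, 0, 0 and 1. For recovered cells against RM1536 the count was 2 without lung and 0 without bone.

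Whether the letters a and b pair the lines is not known. The a minus b differences of both lines had a correlation of -0.37 over genes, so libraries of the same letter did not shift together. With the replicate block 295 genes were called, and Cd274 (adjusted p = 0.0832) and Pvrl2 (0.121) did not pass. Pairing a with b instead gave 3163 genes and 6 ligand genes. That pairing was chosen from the correlation in these same data, so its higher counts are partly built in.

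Signs turned for values near 0 and for means of unlike libraries. The Cd274 log2 fold change for bone against lung (0.0077) was -0.020 with DESeq2 and with RLE scaling, -0.045 with no filter, -0.0086 with the stricter filter and between -0.015 and 0.0081 when a culture library was left out. Leaving out 1 library gave -0.39 to 0.10 for Tnfrsf14 in RM1536 against RM1, and -0.78 to 0.22 for Pvr in recovered cells against RM1. In bone against RM1536 it gave -0.37 to 0.31 for Cd47 and -0.10 to 0.18 for Cd276. In recovered cells against RM1536 it gave -0.062 to 0.70 for Cd47. Tnfrsf14 and Ulbp1 in recovered cells ran from -2.96 and -3.48 without lung to 0.98 and 0.61 without bone when set against RM1536, and from -3.12 and -2.69 without lung to 0.84 and 1.42 without bone when set against RM1.

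Depth limits Pdcd1lg2 and Tnfrsf14, with at most 36 reads in a library.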

Other observations

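Some receptors that immune cells use for these ligands were also read in the tumor cell libraries. Of 8 receptor genes in the table, 3 were tested, and Pdcd1 and Btla had no read in any library. Tigit, the inhibitory receptor for Pvr, had 4.83 CPM in bone, 3.395 CPM in lung, 0.684 and 0.842 CPM in RM1536, and 5.98 and 4.50 CPM in RM1. Both RM1536 libraries were the lowest of the 6. Tigit fell by 2.77 ± 0.39 on the log2 scale in RM1536 relative to RM1 (edgeR adjusted p = 0.0206), a call that was lost without RM1 a, RM1536 a or RM1536 b (adjusted p 0.0535 to 0.0775). Recovered cells against RM1 gave -0.37 ± 0.36 (adjusted p = 0.578).

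Havcr2, which codes for the galectin-9 receptor TIM-3, had 0.922 CPM in bone, 5.96 CPM in lung, 4.79 and 1.07 CPM in RM1536, and 4.98 and 11.9 CPM in RM1, and did not pass in RM1536 against RM1 (adjusted p = 0.300). Sirpa, the CD47 receptor gene, had 0 reads in RM1536 and 66 in RM1, at least 21.1-fold lower with a floor of 3 counts over the group (adjusted p = 0.0423; lost without RM1 a, RM1536 a or RM1536 b). Ptprc, which marks leukocytes, was at or under 0.0668 CPM in each of these libraries.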
